A study of Mus musculus with 8 samples.

Results

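The array design carries probes for transcripts that were mapped between known genes and are named only by their position and strand. Probes named for such a region on chromosomes 1 to 19 were taken, and those sharing a name were averaged on the log2 scale. This gave 4428 regions, represented by 15580 probes, out of 36427 features on the array. There were 2230 regions on the forward strand (F) and 2198 on the reverse strand (R), with a median of 3 probes each and a range of 1 to 10. A further region on chromosome 18 was lost because its probes were marked as outliers by the scanner software.

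RNA came from microdissected cardiac outflow tracts, the vessel through which blood leaves the embryonic heart, at E10.5. The 4 knockout pools (pools 1, 2, 3 and 7) held tracts of Raldh2-/- embryos, which lack the enzyme, now called Aldh1a2, that makes retinoic acid. The 4 wild type pools (pools 1, 2, 5 and 7) held tracts of wild type littermates, and each pool of either group combined 4 tracts. All dams had eaten food with 0.1 mg/g all-trans-retinoic acid between E7.5 and E8.5, so the wild type pools were exposed as well. The knockout is therefore a rescued one, with early retinoic acid supplied, and the comparison covers tracts that developed beyond the supplemented window. RNA was column-purified without DNase, with integrity numbers over 8.0, and 50 ng was labelled.

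Long intergenic noncoding RNAs are transcribed from their own promoters, usually spliced, and often present at far fewer copies per cell than messenger RNAs. Many lie close to genes that control development, and some arise beside the start of a gene on the other strand. Others are precursors of microRNAs, which are cut from hairpins in a longer transcript. Retinoic acid acts through nuclear receptors on target genes such as the 3' Hox genes and Crabp2, and some of these targets have noncoding transcripts beside them.

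The probes of 5 regions named in the comparison between the groups, and of 1 with a very high signal, are shown first, in lower case and 5′ to 3′, each the brightest probe of its region. The first lies near Hoxb4, the second beside Crabp2, followed by those of regions that hold probes for Gm2694 and 1700001L05Rik and of a region that holds probes for Gm5301 and Gm5989. The last belongs to the region with the highest signal of all.
chr11:96175764-96176029_F: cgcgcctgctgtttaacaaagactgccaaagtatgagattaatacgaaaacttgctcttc
chr3:87757295-87774970_F: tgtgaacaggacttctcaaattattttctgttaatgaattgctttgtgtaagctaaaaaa
chr8:89996710-90049453_F: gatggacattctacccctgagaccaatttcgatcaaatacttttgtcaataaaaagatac
chr15:83181291-83197750_R: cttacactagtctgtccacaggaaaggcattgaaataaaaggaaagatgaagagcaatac
chr6:23105525-23118900_R: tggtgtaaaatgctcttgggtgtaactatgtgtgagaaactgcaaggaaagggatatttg
chr11:22681800-22707775_R: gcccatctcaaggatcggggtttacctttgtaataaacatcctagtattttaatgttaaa
These probes lie on mm9, the build the files use, at positions 96175970 to 96176029 of chromosome 11, 87772547 to 87772606 of chromosome 3 and 90049387 to 90049446 of chromosome 8. The others lie at 83187962 to 83188021 of chromosome 15, 23107822 to 23107881 of chromosome 6 and 22686751 to 22686810 of chromosome 11.

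Both probes of each of the next 2 pairs read nearly the same stretch of the genome on the same strand and are shown because their signals were far apart. Capitals mark the bases a pair shares, 54 in the first pair, from chr1:138528250-138538250_R, and 45 in the second, from overlapping regions at chr8:89996710-90049453_F and chr8:90048940-90049461_F.
A_30_P01026999: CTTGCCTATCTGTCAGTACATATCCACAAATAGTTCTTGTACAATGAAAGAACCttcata
A_30_P01031394: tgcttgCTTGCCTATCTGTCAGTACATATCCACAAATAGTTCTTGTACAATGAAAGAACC
A_30_P01021540: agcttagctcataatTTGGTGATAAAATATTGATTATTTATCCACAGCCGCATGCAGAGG
A_30_P01029453: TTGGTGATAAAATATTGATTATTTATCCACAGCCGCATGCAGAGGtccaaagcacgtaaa
Levels here and below are log2 processed signals minus the 75th percentile of the array, so 0 marks that percentile. Unless 8 arrays are named, levels are means that leave out wild type pool 1, which stood apart as described below. Values by pool follow the order 1, 2, 3, 7 in the knockout and 1, 2, 5, 7 in the wild type group. In the first pair the levels were -6.72 and -2.30, and only the second probe was well above background, on all 7 arrays. In the second pair they were -7.32, on 0 of 7 arrays above background, and -3.25, on 6 of 7. Over all 157 probe pairs that shared at least 45 bases the median difference was 0.30, and 6 pairs (3.82%) differed by more than 2. A level therefore describes a probe's signal, and an order of levels between regions is an order of signals, not of transcript copies.

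The third set are probes that overlap microRNA hairpins in the RefSeq table on the same strand, with the shared bases in capitals. The first carries bases of Mirlet7c-2, of the let-7 family that promotes differentiation, and lies in chr15:85412264-85549139_F. The second carries bases of Mir410, from the large imprinted microRNA cluster downstream of Meg3, and lies in chr12:110973190-110987668_F.
A_30_P01031395: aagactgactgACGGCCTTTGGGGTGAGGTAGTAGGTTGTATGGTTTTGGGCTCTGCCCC
A_30_P01029937: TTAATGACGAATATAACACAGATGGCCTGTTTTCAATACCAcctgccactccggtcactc
The mature products are shown with the seed (bases 2 to 8) in capitals.
mmu-let-7c-5p: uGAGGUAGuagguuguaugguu
mmu-miR-410-3p: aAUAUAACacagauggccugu

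A minority of the probes gave a signal above background. Of the region probes, 27.4% were well above background on all 7 arrays, against 68.6% of the probes for protein-coding genes and 27.5% of the 1510 probes for named lncRNA genes. The median probe level was -5.73 for the regions, -5.92 for the named lncRNAs and -1.13 for protein-coding genes, so the regions resembled the named lncRNAs in signal. Counted by region, where 1 probe suffices, 2288 (51.7%) were detected on all 7 arrays and 623 (14.1%) on none. When every probe of a region had to be above background, 587 regions (13.3%) remained. The median region level was -5.45, with 5% of regions under -7.06 and 5% over -0.73. Levels above the 75th percentile of the array were reached by 157 regions (3.55%).

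**Figure D1:**
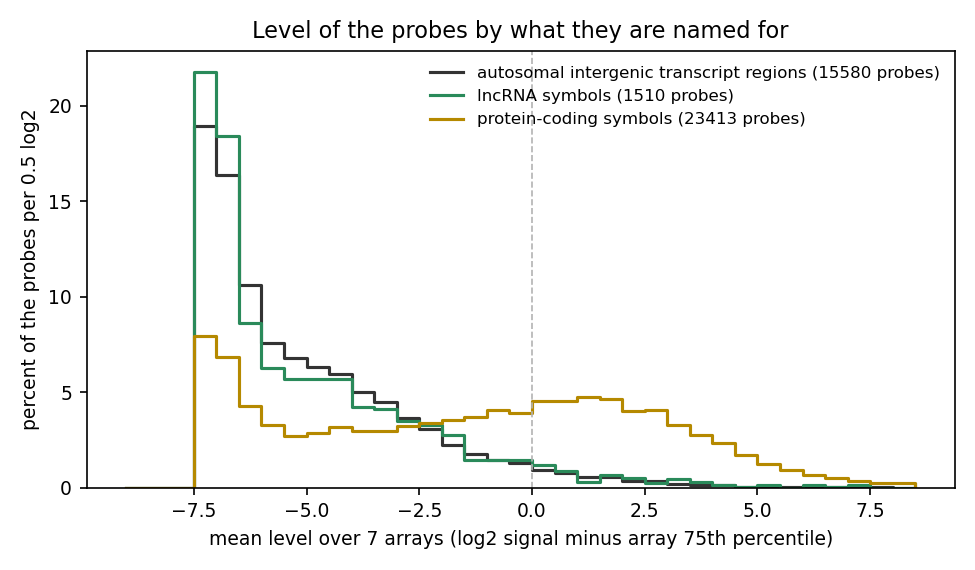
Share of probes (percent per 0.5 log2 units, vertical axis) by mean level over 7 arrays (log2 signal minus the array's 75th percentile, horizontal axis) for region probes, lncRNA symbols and protein-coding symbols. The region and lncRNA curves pile up at the low end, with medians of -5.73 and -5.92, while protein-coding probes spread up to high levels around a median of -1.13.

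The 5 regions with the highest signal over 8 arrays, counting 1 for each locus, ranged from 7.70 down to 6.64. They were chr11:22681800-22707775_R at 7.70 (7.97 over 7 arrays), then chr17:48068261-48087905_F, chr7:108209996-108216032_R, chr17:17481706-17482457_R and chr6:116123643-116124550_F. In the first of these the knockout pools measured 7.93, 8.04, 7.80 and 8.11. Wild type pools 2, 5 and 7 measured 7.92, 7.85 and 8.15, and wild type pool 1 measured 5.78. The knockout pools and these 3 wild type pools overlapped, and wild type pool 1 lay below them all. None of the 5 held a named probe, and the nearest named probes lay 20843 to 64384 bases away.

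Signal varied more between regions than between the probes of a region. The SD of region levels was 2.09, while the median SD among the probes of a region with at least 3 was 1.11. Of 1827 such regions with at least 1 probe detected on all 7 arrays, 276 had all of them detected. Base composition moved with the signal. Probes under 35% G and C had a median level of -6.92, those of 35 to 45% had -6.06 and those over 45% had -4.51 (Pearson r = 0.23 over 15580 probes, which share arrays). The regions' probes had a median of 45% G and C against 41.7% for other probes. Short regions were detected less often. Of 936 regions under 1 kb, 37.9% were detected on all 7 arrays, against 54.3 to 56.4% in the classes from 1 kb up, with like numbers of probes. Regions overlapped each other on the same strand in 2032 cases (45.9%), so they are not independent transcripts. By chromosome the share detected on all 7 arrays ran from 44.1% on chromosomes 13 and 18 to 60.7% on chromosome 14.

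Wild type pool 1 differed from the rest in these regions more than in other features. On it 98.6% of the regions were detected, against 54.9 to 74.3% on the other 7 arrays, and its median region level was -1.54 against -5.68 to -4.59. Of the 623 regions detected on none of the other arrays, 93.7% passed that limit on it. Its median correlation with the other arrays was 0.44 over the regions and 0.72 over all features, where the others reached at least 0.92 and 0.97. Knockout pool 7 stood apart to a lesser extent, with the highest median of the other 7 (-4.59) and 74.3% of regions detected. Wild type pool 7 had the fewest, 54.9%. In the labels the array number begins with 1 for every knockout pool and with 2 for every wild type pool, so what that number marks and genotype cannot be told apart. For Aldh1a2 itself the knockout pools gave 2.26, 2.23, 2.12 and 0.28, and the wild type pools gave 1.95, 3.44, 3.21 and 3.89. It was detected in every pool, by 1 probe whose place relative to the deleted part was not examined. The tissue was as labelled in its main markers: all 8 cardiomyocyte genes (among them Tnnt2, Actc1 and Myl7) were detected on all 8 arrays. On the 7 arrays 0 of these 8 were higher in the knockout pools on average (median -0.20 log2), while over 8 arrays 5 were (median 0.38). Among other cell types, all 6 erythroid and all 5 neuronal markers were on average higher in the knockout pools of the 7 arrays (medians 0.64 and 0.58 log2, 0 past the threshold). Their summed log2 levels ranged from 10.1 to 10.71 in the knockout and 9.75 to 10.6 in the wild type pools for erythroid markers. The neuronal sums ranged from 2.78 to 3.16 and from 1.88 to 2.68. All 4 macrophage markers were also higher on average (median 0.36), as were 3 of 5 pharyngeal epithelium (0.73), 2 of 4 neural crest (0.77), 3 of 4 second heart field (0.42), 3 of 5 endothelial (0.081) and 1 of 4 smooth muscle markers (-0.15), again with 0 past the threshold. Each list had no member undetected on all 7 arrays, and their part in the results below was not tested. In pooled tissue, fewer cells of a type and less RNA per cell cannot be told apart.

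**Figure D2:**
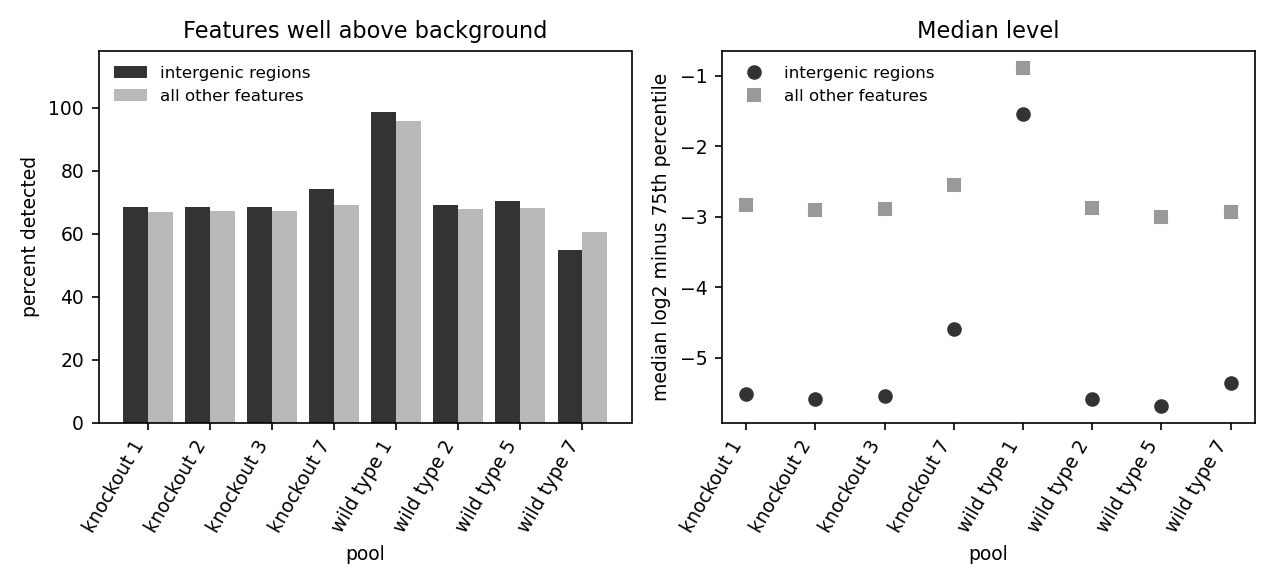
Left, percent of regions and of all other features detected on each array, and right, their median level (log2 signal minus the array's 75th percentile), by pool. Wild type pool 1 shows 98.6% of regions detected and a median of -1.54, while the other 7 arrays lie at 54.9 to 74.3% and -5.68 to -4.59.

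The signal of an interval often differed between its strands. Both strands of the same interval were on the array in 1042 cases. The median difference between the strands was 1.31 (1.17 over all 8 arrays), and 354 pairs (34.0%) differed by more than 2. Both strands were detected on all 7 arrays in 385 pairs, a single strand in 455 and neither in 202. In 81 pairs a strand was detected on all 7 arrays and its partner on none. The forward strand was the higher in 489 pairs, and the order of the strands was the same on all 7 arrays in 711. In wild type pool 1 the median difference was only 0.75. The levels of the strands correlated weakly (Pearson r = 0.18 over 1042 pairs measured on the same arrays).

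The widest gaps between strands over 8 arrays (8.97 to 9.21), of those pairs with both strands tested, were at chr12:16833551-16901804, chr11:22681800-22707775 and chr4:136856064-136877219. In the first, the forward strand measured 4.07 and the reverse strand -5.95. Its forward strand lay 29 bases from a probe for E2f6, a repressor of the E2F family, on the same strand. In the chromosome 11 interval the reverse strand, the region with the highest signal, measured 7.97 and the forward strand -1.41. The chromosome 4 interval held a same-strand probe for Cdc42, a small GTPase of the cytoskeleton, on its reverse strand (4.72) and measured -5.08 on the forward strand. The narrowest over 8 arrays (0.0099 to 0.022), among pairs detected on both strands of all 8, had wider gaps over the 7 arrays whose levels are given: chr2:25774411-25783757 (-5.93 and -5.83), chr19:38392796-38398771 (-5.81 and -5.91) and chr15:61984389-62102500 (-3.67 and -3.79). The last lies at Pvt1, the noncoding gene next to Myc, with a named Pvt1 probe on the forward strand.

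**Figure D3:**
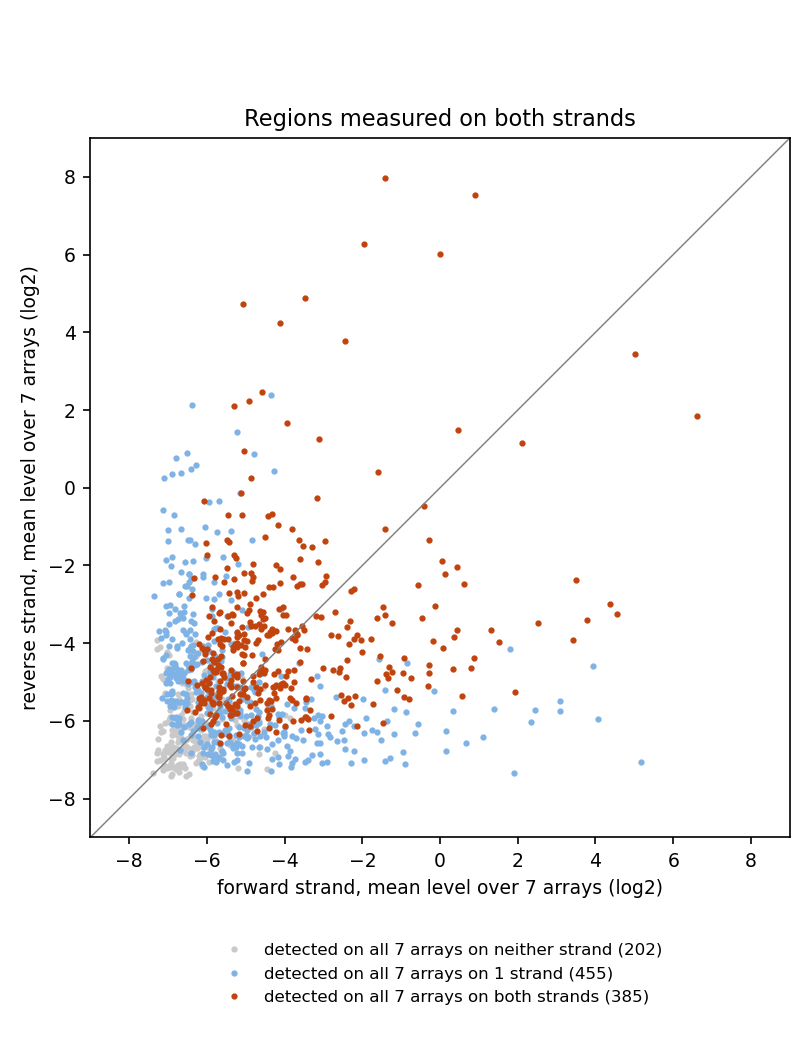
Level of the reverse strand (vertical axis) against that of the forward strand (horizontal axis), both log2 means over 7 arrays, for 1042 intervals measured on both strands. Most of the brighter points lie far from the diagonal, and the 385 pairs detected on both strands are a minority.

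The term intergenic did not hold for every region. A probe for a named gene lay inside 361 regions (8.15%) on the same strand. In 113 of these the gene was protein-coding, in 199 an lncRNA gene and in 26 a pseudogene. A named probe lay inside on the opposite strand in 268. Regions with a same-strand named probe were brighter, with a median of -4.78 and 64.5% detected on all 7 arrays, against -5.49 and 50.5% for the rest. For those with a protein-coding probe inside, the values were -4.33 and 69.9%. The median distance to the nearest named probe was 18472 bases.

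Probe sequences of some regions matched microRNA hairpins. With at least 20 shared bases, 4 regions matched hairpins of the RefSeq table (build GRCm38.p6, 1005 hairpins) on the same strand and 7 on the opposite strand. The Mir410 probe printed above was detected on all 7 arrays at -2.17, and its region chr12:110973190-110987668_F measured -0.52 in the mean. The Mirlet7c-2 probe was detected on 2 of 7 arrays at -6.07, in a region whose mean was -2.56. Neither region separated the groups: knockout minus wild type was -0.17 ± 0.30 (SE) over 8 arrays and -0.34 ± 0.19 over 7 for the Mir410 region, and -0.49 ± 0.56 and 0.12 ± 0.15 for the let-7 region. On the opposite strand, probes matching Mir101a, Mirlet7i and Mir18 were detected on 0 of 7 arrays, while those matching Mir1187 (2.41) and Mir6516 (-3.30) were detected on all 7. The Mir1187 match covered only 20 bases, the minimum, and the positions of hairpins were not compared. A match that short need not place a region at the hairpin: the probe matching Mir101a over 60 bases also matched Mir101b over 20.

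Other regions reached the start of a known gene. A probe matched exactly, over its 60 bases, a window from 250 bases before to 50 after a RefSeq gene start (32851 windows, GRCm38.p6) in 115 regions. In 55 regions a match was on the gene's strand and in 63 on the opposite strand. Of the 82 opposite-strand probes 43.9% were detected on all 7 arrays, with a median level of -4.53. For the 82 same-strand probes the share was 25.6% and the median -5.90. Among opposite-strand matches, the probe facing Smim13 measured 1.86 and that facing Lsamp, a neural adhesion protein, -3.07. Tug1, a noncoding RNA, was matched on both strands, at -3.32 on its own and -3.90 on the opposite. These examples were chosen after their values were seen.

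The question the design poses for these regions is whether their transcripts differ between rescued knockout and rescued wild type tracts. None did at the threshold. With limma over all features tested and Benjamini-Hochberg adjustment, 0 of 3043 regions had an adjusted p under 0.05, as did 0 of 24425 features (0.00%). The smallest adjusted p of a region was 0.742. Unadjusted, 16 regions had p under 0.05, of which 6 were higher (0.475% of all features) and 10 lower (0.991%) in the knockout. This is 0.526% of the regions against 1.47% of all features. Without wild type pool 1, 0 of 2904 regions passed (0.00% of 23781 features), with a smallest adjusted p of 0.353. Unadjusted, 121 were then higher (5.43% of all features) and 44 lower (4.02%), together 5.68% of the regions against 9.45% of all features. Weighting arrays by quality (limma arrayWeights) over 8 arrays called 0 regions, with a smallest adjusted p of 0.0835. Of all 24425 features it called 1 higher and 1 lower. Under an unadjusted 0.05 it had 123 higher and 86 lower of the 3043 regions, against 1565 and 1267 of all features. Median scaling of the 7 arrays, an alternative added after the data were seen, called 3 regions (0.101% of all features called). The Hoxb4-side region and the Gm5301 region were higher and the Gm2694 region lower. Both higher regions were tested only because they were above background in the knockout pools, the group in which they were high. Their calls are therefore not independent of that choice. The labels do not say that the pools were separate litters, so the p-values measure the spread between these pools, each on 1 array.

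The direction of the bulk of regions depended on wild type pool 1 and, without it, on the scaling. Over 8 arrays the median difference (knockout minus wild type) was -0.62 over the regions and 0.074 over all features, and 2684 regions (88.2%) were negative. Without wild type pool 1 the median was 0.13 (all features 0.058), and 838 (28.9%) were negative. The dim regions carried both shifts. Among regions with levels under -5 the median was -0.86 over 8 arrays and 0.18 over 7. From -5 to -3 it was -0.54 and 0.15, and above -3 it was -0.037 and 0.012. In the same 3 classes wild type pool 1 exceeded the other wild type pools by a median of 4.19, 2.77 and 0.29. Knockout pool 7 exceeded the other knockout pools by 0.94, 0.45 and 0.056. Quantile normalization of the 7 arrays moved the median to -0.024 (all features 0.00066), and median scaling to -0.091 (all features -0.16).

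**Figure D4:**
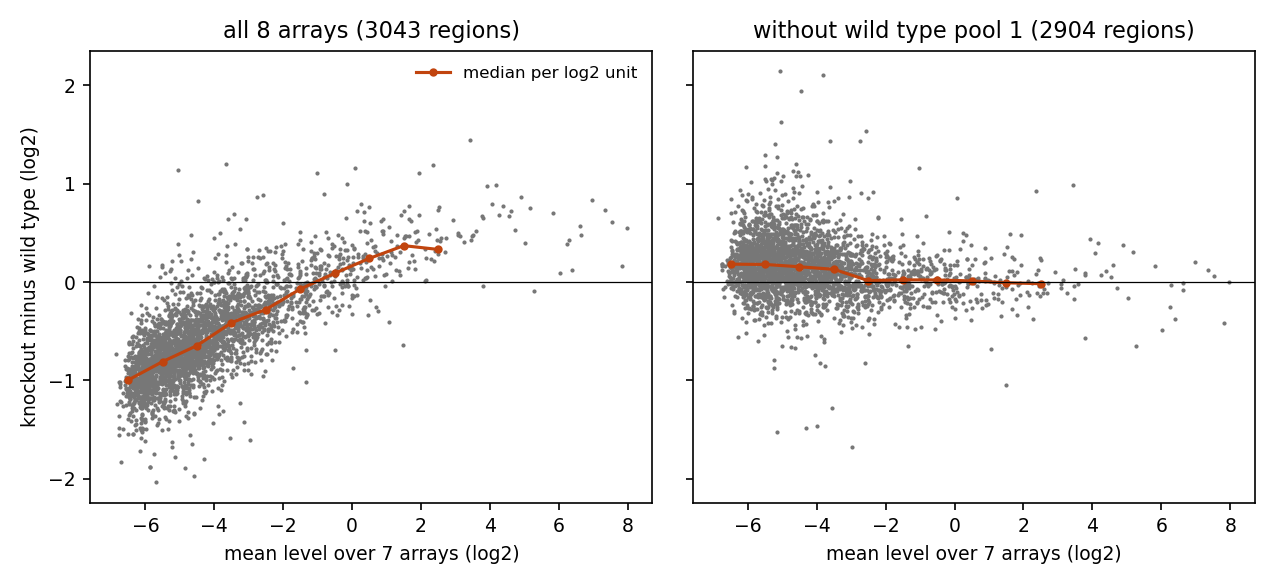
Knockout minus wild type (log2, vertical axis) against mean level over 7 arrays (log2, horizontal axis) for each tested region, over all 8 arrays (left) and without wild type pool 1 (right), with the median per log2 unit. On the left the median rises from the dim to the bright regions and is -0.86 over those under -5, and on the right it stays near 0, with 0.18 over those under -5.

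The pools of the groups did not overlap in 50 regions over 8 arrays, 1.64% of those tested against 4.93% of all features. Of these 19 were higher in the knockout (3.55% of all features) and 31 lower (1.38%). With median scaling the split was 6 higher and 48 lower (95 and 206 of all 24425 features). With quantile normalization it was 31 and 57 (903 and 587 of all features). Without wild type pool 1 there were 171 (5.89%, against 10.6% of all features), 121 higher (6% of all features, 1426 of 23781) and 50 lower (4.64%). That split was 78 and 147 with quantile normalization (1147 and 1585 of all 23781 features). With median scaling of the 7 arrays it was 30 and 179 (180 and 2548 of all features), so all features moved in the same direction. The count was 201 of 2983 regions without knockout pool 7 (all features 1182 higher and 911 lower of 24189). It was 114 of 2916 without wild type pool 5 (all features 2472 and 702 of 23822). Without wild type pool 2 it was 92 of 2925 (all features 1384 and 572 of 23832). Without knockout pool 3 it was 79 of 2990 (all features 1820 and 542 of 24146). Of the 171 regions, 65 had all their probes detected on all 7 arrays, and 18 differed by more than 1 log2 unit, 13 higher and 5 lower. The regions described next were picked from these separated regions by smallest p, so their directions follow from the choice.

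Among regions higher in the knockout pools was one at a microRNA cluster. The region chr14:115443612-115445950_F starts 414 bases beyond a probe that is antisense to the hairpin of Mir18, which is made from the Mir17hg precursor, a cluster that promotes proliferation and is needed in the embryonic heart. The knockout pools gave 0.33, 0.40, 0.33 and 0.71, and the wild type pools -1.62, -0.093, -0.065 and -1.08. All knockout values lay above all wild type values. The knockout mean was 0.45 ± 0.18 and the wild type mean -0.71 ± 0.77 (SD, n = 4 each). The difference was 1.16 ± 0.40 (SE; limma adjusted p = 0.742), and over 7 arrays 0.86 ± 0.26 (adjusted p = 0.441).

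The other 7 chosen as higher over 8 arrays differed by 0.71 to 1.20, and by 0.36 to 0.76 over the 7 arrays. In each of them wild type pool 1 was the lowest of all 8. With quantile normalization the 8 differences, the one at Mir18 included, ranged from 0.31 to 1.85 over 8 arrays, and with median scaling from 1.22 to 1.70. With normexp background correction and quantile normalization they ranged from 0.32 to 1.29, with 4 smaller and 0 larger by over 1.5 times. They included chr16:64761963-64762369_R, 3897 bases from the protein-coding gene 4930453N24Rik, at 0.89 ± 0.34 (SE) and, without that pool, 0.67 ± 0.22. The overlapping region chr16:64758224-64765674_R, chosen over the 7 arrays, was at 0.29 ± 0.31 and 0.53 ± 0.11. At chr14:21462770-21463270_F, near Myoz1, a sarcomere protein gene read from the opposite strand, the differences were 1.20 ± 0.46 and 0.76 ± 0.22. It was detected in 4 knockout and 2 wild type pools, so it passed the filter only through the knockout pools, in which it was high. Its differences are not independent of that choice. The region chr5:35893909-35899497_F was at 1.11 ± 0.58 and 0.47 ± 0.13, and chr4:141527564-141547339_F at 0.97 ± 0.51 and 0.44 ± 0.15.

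The higher region with the smallest p over the 7 arrays lay in the Hoxb cluster. The region chr11:96175764-96176029_F, whose probe is the first printed above, lies 6856 bases from the probe of Hoxb4 and on its strand. Hoxb4 is a homeobox gene that sets position along the body axis. The region measured -3.73, -4.83, -4.48 and -3.56 in the knockout pools. In wild type pools 2, 5 and 7 it measured -6.11, -6.49 and -6.27, and in wild type pool 1 -2.26. Every knockout value was above those of the 3 wild type pools, while wild type pool 1 was above all of them. The region was detected in all 4 knockout pools and, of the 3 wild type pools, in only 1, so the size of the difference rests in part on values not well above background. The difference over 7 arrays was 2.14 ± 0.32 (SE; limma adjusted p = 0.353), and over 8 arrays 1.14 ± 0.91 (adjusted p = 0.742). With median scaling of the 7 arrays it was 1.92 (adjusted p = 0.0244). Hoxb4 itself differed by 1.37 over 7 arrays and 1.78 over 8.

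The region chr6:23105525-23118900_R, which holds probes for the pseudogenes Gm5301 and Gm5989, followed a like pattern. The knockout pools measured -3.87, -3.96, -3.99 and -2.73, and wild type pools 2, 5 and 7 measured -5.60, -5.51 and -5.61. Wild type pool 1 measured -1.12, above all others. None of the 3 wild type pools was well above background, so the knockout signal was at least 2.81-fold higher over 7 arrays. This bound sets each of those pools at the lowest signal called above background on its array, or at its own where that was higher. The bound was not tested, and the limma adjusted p of 0.354 over 7 arrays belongs to the measured levels. Over 8 arrays the difference was 0.82 ± 0.99 (SE; adjusted p = 0.742). With median scaling of the 7 arrays its adjusted p was 0.0219, computed from the same wild type values below background.

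At chr12:109619407-109619843_F, 20699 bases from Cyp46a1, a cholesterol hydroxylase of neurons, the knockout pools measured -3.08, -2.97, -3.34 and -3.45. Wild type pools 2, 5 and 7 measured -4.23, -4.02 and -4.29, and wild type pool 1 -1.77. The knockout values lay above the 3 wild type values and below wild type pool 1. The difference was 0.97 ± 0.15 (SE; adjusted p = 0.354) over 7 arrays and 0.37 ± 0.56 over 8. Another pair, chr6:82573600-82574428_R and chr15:58985008-58985429_F, were at 1.05 ± 0.21 and 1.10 ± 0.22 over 7 arrays. In that fit both passed the filter only through the knockout pools, in which they were high, so their differences are not independent of that choice. Over 8 arrays they were at 0.17 ± 0.79 and 0.043 ± 0.93.

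Among regions lower in the knockout pools were some that hold probes for named noncoding genes. In chr15:83181291-83197750_R, with 5 probes and a probe for 1700001L05Rik inside, the knockout pools measured -4.65, -4.98, -5.22 and -4.90. The wild type pools measured -2.20, -3.09, -4.16 and -3.13. No knockout pool reached a wild type pool, and wild type pool 5 was the nearest. The knockout mean was -4.94 ± 0.24 and the wild type mean -3.14 ± 0.80 (SD, n = 4 each). The groups differed by -1.80 ± 0.41 (SE; limma adjusted p = 0.742). Without wild type pool 1 it was -1.48 ± 0.28 (adjusted p = 0.397).

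In chr8:89996710-90049453_F, which holds a probe for Gm2694, the knockout pools measured -4.16, -4.26, -4.07 and -3.90. The wild type pools measured -1.59, -2.57, -3.29 and -2.59. All knockout values lay below all wild type values. The difference was -1.59 ± 0.37 (SE; adjusted p = 0.742) over 8 arrays and -1.28 ± 0.20 (adjusted p = 0.354) over 7, a 2.43-fold lower signal. Median scaling of the 7 arrays gave -1.50 (adjusted p = 0.0386). The SD among its 3 probes was 3.27, and both the bright probe and the undetected probe printed above, at -1.53 and -7.32, are among them.

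The region chr3:40439525-40509975_F holds a probe for Intu, a planar polarity gene needed for cilia. The knockout pools lay within -1.62 to -1.53 and the wild type pools within -1.36 to -0.84. The difference was -0.51 ± 0.25 (SE) over 8 arrays and -0.46 ± 0.13 over 7. Its 4 probes had an SD of 0.20. Over 8 arrays the difference was close to 0 with median scaling (-0.0041) and quantile normalization (-0.011), and -0.19 with normexp background correction. At chr9:75316023-75344401_F, which holds a probe for Gm7972 and has 10 probes of its own, the differences were -1.68 ± 0.80 and -0.79 ± 0.26. The other 4 of the 8 lower regions were chr8:108098325-108110775_F (-1.63 over 8 and -0.87 over 7 arrays), chr8:13200727-13207714_F (-1.08 and -0.82), chr11:97305584-97309994_F (-0.74 and -0.40) and chr6:42659063-42660071_R (-0.64 and -0.44). Over 8 arrays the differences of these 8 lower regions depended on the scaling: they ranged from -1.80 to -0.51, from -1.29 to -0.0041 with median scaling and from -1.14 to -0.011 with quantile normalization. Quantile normalization made 7 of the 8 smaller by over 1.5 times, among them chr11:97305584-97309994_F (-0.059), chr6:42659063-42660071_R (-0.047) and chr8:13200727-13207714_F (-0.24). Median scaling did so for 4. Normexp background correction with quantile normalization did so for all 8, which then ranged from -0.81 to -0.067. It put the 1700001L05Rik region at -0.47.

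Of the lower regions chosen over the 7 arrays, chr5:35975265-35982561_R had the largest difference of those not yet described. Lying 18991 bases from Acox3, a peroxisomal oxidase read from the other strand, it measured 1.20, 0.94, 1.37 and 0.60 in the knockout pools. In wild type pools 2, 5 and 7 it measured 1.68, 2.01 and 2.55, and in wild type pool 1 0.44. The knockout pools lay below the 3 wild type pools, and wild type pool 1 lay below them all. The difference was -1.05 ± 0.26 (SE; adjusted p = 0.407) over 7 arrays and -0.64 ± 0.46 over 8. For chr4:32294119-32294941_F the values were -0.65 ± 0.15 over 7 arrays and -0.092 ± 0.53 over 8. In chr15:66685663-66686113_R, they were -0.56 ± 0.13 and -1.44 ± 0.78.

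**Figure D5:**
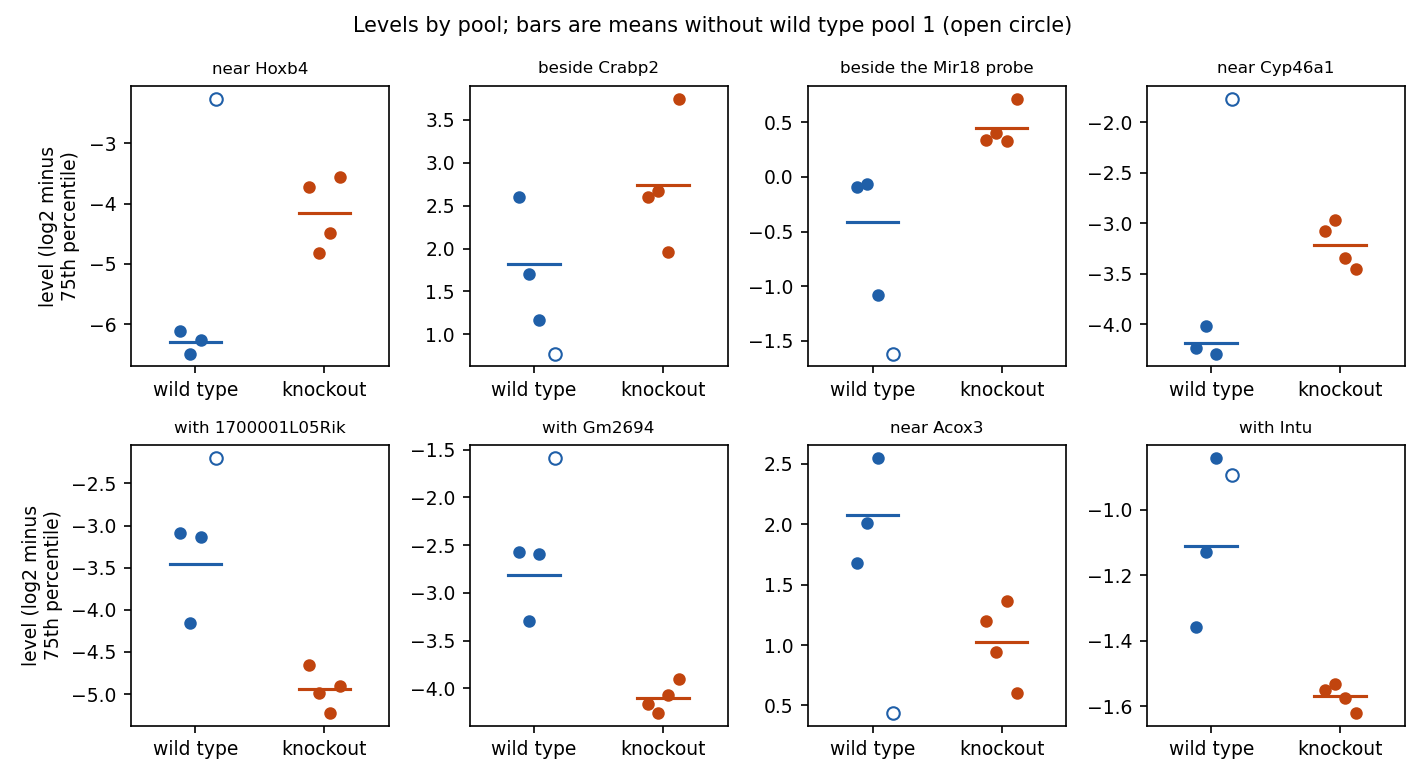
Level (log2 signal minus the array's 75th percentile, vertical axis) of 8 named regions in each pool, labelled by the gene or probe beside or inside them, with bars at the group means without wild type pool 1, which is the open circle. The knockout pools lie apart from the 3 filled wild type pools in 7 panels, overlap them beside Crabp2, and near Hoxb4, Cyp46a1 and Acox3 lie between those pools and wild type pool 1.

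Regions beside genes of heart and retinoic acid development were looked up from a list of 96 genes, of which 92 had a positioned probe. Tested regions lay within 50 kb of 19 of them and numbered 17. Over 8 arrays 3 of the 17 were higher in the knockout pools, with a median of -0.49, and over 7 arrays 13, with a median of 0.10. All tested regions had medians of -0.62 and 0.13, with 359 of 3043 higher over 8 arrays and 2066 of 2904 over 7. The 17 thus moved with the regions as a whole. The medians over all features were 0.074 and 0.058. In these fits 0 passed the threshold (0.00% of all features), and 1 had an unadjusted p under 0.05 in each fit, which 1.47% and 9.45% of all features had.

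Beside Crabp2, which carries retinoic acid to its receptors, chr3:87757295-87774970_F lay 29 bases from the gene's probe on the same strand. The knockout pools measured 2.60, 2.67, 1.96 and 3.75, and the wild type pools 0.77, 2.60, 1.70 and 1.16. Knockout pool 3 lay below wild type pool 2, so the groups overlapped. The region differed by 1.19 ± 0.51 (SE; limma adjusted p = 0.742) over 8 arrays and 0.92 ± 0.48 (adjusted p = 0.577) over 7. Crabp2 differed by 1.64 and 1.20.

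The region chr14:49314574-49358174_R, on the strand of Otx2, a head patterning gene 36660 bases away, was among the brightest of the 17 at 4.89. It differed by 0.87 ± 0.48 (SE) over 8 arrays and 0.38 ± 0.16 over 7, while Otx2 differed by -0.54 and -0.0083. The region chr11:96111499-96126224_R, near Hoxb5, was at -0.55 ± 0.64 and 0.10 ± 0.30, with Hoxb5 at 0.81 and 1.25. Beside Six2, a progenitor factor, chr17:86092322-86093123_F was at -0.50 ± 0.71 and 0.26 ± 0.28, with the gene at 0.89 and 1.00. At chr17:26997231-27023120_R, on the strand of the heart factor Nkx2-5, the values were -0.74 ± 0.70 and 0.011 ± 0.25, with the gene at 0.21 and -0.29.

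Other regions of this list lay beside Meis1, Nr2f1, Nr2f2, Rarg, Stra6, Sox10, Snai1, Wnt11 and Irx5. Their differences ranged from -1.34 to -0.23 over 8 arrays and from -0.25 to 0.48 over 7. Over 8 arrays all were negative, as were 88.2% of all tested regions. All of these 9 had levels of -2.27 or lower. Over every region within 10 kb of a named probe and tested with it, the differences of region and gene had a Pearson r of 0.17 over 8 arrays (1056 pairs, 46.2% with the same sign) and 0.23 over 7 (997 pairs, 62.3% with the same sign). Within 200 kb it was 0.076 (2413 pairs, 42.1% with the same sign) and 0.13 (2264 pairs, 57.5%). These pairs share arrays and may share transcripts. The shares with the same sign also depend on how many of each set were negative. Negative were 88.2% of tested regions and 46.3% of all features over 8 arrays, and 28.9% and 39.5% over 7.

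Named noncoding RNAs on the same arrays gave no clearer picture. Of 75 genes listed, 40 were on the array and 29 were tested over 8 arrays, with 0 past the threshold, 16 positive and a median of 0.067. Over 7 arrays 28 were tested, 0 passed, 14 were positive and the median was 0.016. Neat1, which builds nuclear paraspeckles, had an unadjusted p of 0.0454 at -0.87 over 8 arrays and 0.0457 at -0.87 over 7 (limma adjusted p = 0.742 and 0.526). Hoxa11as, antisense to Hoxa11, had 0.0495 at -1.78 over 8 arrays and -1.04 over 7 (adjusted p = 0.742 and 0.558).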

How the data were processed

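The authors deposited scanner files of 8 one-colour arrays (Agilent Feature Extraction, per the file headers) and a matrix of all 8. Their deposited intensity is linear and background-subtracted, per the file headers. The matrix equalled it rounded to 3 significant digits. The above-background, outlier and saturation flags (unit other) are the scanner software's, per the file headers. No region spot was saturated, and the number of arrays limits the precision.

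Log2 intensities were scaled by each array's 75th percentile, spots and then probes of a name were averaged, and probes flagged as outliers on an array were left out. Features were tested where 1 probe or more passed the background flag on 3 or 4 arrays of a group. Groups were compared with limma 3.58.1 in R 4.3.3 (lmFit, eBayes, two-sided), adjusted by Benjamini-Hochberg over all features, threshold 0.05. The fit was tested on simulated data. Named probes were placed by the files' mm9 coordinates, and gene classes came from the RefSeq table (GRCm38.p6).

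Members, lists and tests were chosen with earlier results of these data known. Named were the 5 regions of highest level; of regions without overlap, the 8 higher and 8 lower with the smallest p over 8 arrays and 6 and 6 over 7 arrays; the brightest tested region within 50 kb of each listed developmental gene; the 3 widest and 3 narrowest strand pairs; and regions past the threshold. Regions within 10 kb counted as 1 locus, those on chromosome 18 were not named, and 2 beside listed genes are not reported singly here. Sequence matches to hairpins and gene starts were added later. Alternatives were other scalings, background, filters, probe summaries, array weights, a fold minimum, pool number as a block and leaving out each pool. Deviations of same-numbered pools (1, 2 and 7) correlated at -0.21, 0.37 and -0.46, so the numbers were not treated as pairs.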

Additional observations from a re-analysis of the deposited data

Results flagged for a closer look

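For the named regions and 2 array measures, 80 groups of 4 pools were examined. In 20 of them a pool lay far from the others, past the 95% critical value of Dixon's ratio of gap to range. The far pool was wild type pool 1 in 15 and knockout pool 7 in 5. Chance passes that critical value in about 1 in 20 groups that are independent and not picked by their values. Many of the regions were picked from these same levels, and the groups share the same arrays. The 20 of 80 therefore cannot be set against that rate, and the ratio serves here only to describe distance.

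Wild type pool 1 lay highest in dim regions. Its level was -2.26 near Hoxb4, -1.77 near Cyp46a1, -1.12 in the Gm5301 region, -1.24 in the Gm7972 region and -1.70 in chr8:108098325-108110775_F. It was -1.54 in chr15:58985008-58985429_F, -2.42 in chr15:66685663-66686113_R, -0.69 beside Meis1 and -0.61 near Hoxb5. Beside Six2 it was -0.78, beside Nr2f1 -1.17 and beside Nr2f2 -1.09. The same pool lay lowest in bright regions, at -0.88 in chr5:35893909-35899497_F and 2.73 beside Otx2. Its median region level was -1.54.

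Knockout pool 7 lay highest in its group at -2.73 in the Gm5301 region, -2.30 near Hoxb5 and -2.81 beside Six2. On its array the share of regions detected was 74.3% and the median region level -4.59. The cause of either pool's distance was not tested.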

How the results depend on the processing

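The counts of regions past the threshold were 0 higher and 0 lower in every setting run except median scaling of the 7 arrays, an alternative added after seeing the data, where they were 2 and 1. The 2 higher ones passed the filter only through the knockout pools, in which they were high. The count without overlap between the groups was 88 with quantile normalization, 94 with normexp background, 156 with the pool number as a fixed replicate block over the shared numbers (fewer arrays), and 61 to 201 over the fits that left out 1 pool. Without wild type pool 1 it was 171, 225 with quantile normalization and 209 with median scaling. Over all features the counts over 8 arrays were 866 higher and 337 lower. Normexp background gave 930 and 577 there, and the fixed block 3349 and 1005. A random replicate block and array weights (both added after seeing the data) leave the levels as they are and cannot change the 171. The replicate block changed no call. Regions detected on all 8 arrays fell from 2286 to 556 when every probe had to be above background. Tested regions with a named probe within 50 kb numbered 2240, and 1245 within 10 kb.

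For 38 named regions 909 differences were recomputed. Of these 849 kept their sign and their side of the threshold, 3 crossed it and 57 changed sign, most of them in dim regions beside developmental genes. The cause of these changes was not tested. Settings that changed only the filter, the eBayes options or the fold minimum used the same levels, so no sign could change in them. The matrix values differed from the main ones only by rounding. The 849 therefore overstates how stable the differences were. Regions are named here by the gene beside them. With median scaling the differences became 0.42 in chr4:32294119-32294941_F, 0.0060 for Six2, 0.16 for Rarg, 0.076 for Stra6, 0.15 for Sox10, 0.062 for Snai1 and 0.28 for Irx5. Quantile normalization gave 0.25 for Rarg, 0.054 for Stra6, 0.34 for Sox10 and 0.78 for Irx5, and normexp 0.074 for Rarg, 0.14 for Stra6, 0.24 for Sox10 and 0.17 for Irx5. Array weights gave 0.35 for Meis1, 0.062 for Six2, 0.052 for Rarg, 0.50 for Stra6 and 0.16 for Sox10. The brightest probe alone gave -0.11 in chr15:58985008-58985429_F, 0.27 for Nkx2-5, 0.15 for Hoxb5, 0.18 for Six2, 0.51 for Stra6, 0.30 for Sox10 and 0.23 for Snai1. The mean of probes that pass the filter gave -0.11, 0.27 for Nkx2-5, 0.51 for Stra6 and 0.23 for Snai1. The fixed replicate block gave -0.39 in chr15:58985008-58985429_F and 0.018 in chr4:32294119-32294941_F. Quantile normalization of the 7 arrays gave 0.13 for Six2 and 0.27 for Stra6, and their median scaling 0.013 for Meis1, 0.040 for Six2 and 0.27 for Stra6.

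Over the fits that left out 1 pool the ranges were -1.13 to 0.011 for Nkx2-5, -1.65 to 0.23 for Meis1, -0.83 to 0.10 for Hoxb5, -0.81 to 0.26 for Six2, -0.54 to 0.073 for Rarg, -1.01 to 0.48 for Stra6, -0.58 to 0.071 for Sox10 and -1.27 to 0.055 for Wnt11, each highest without wild type pool 1. They were -0.28 to 1.05 in chr6:82573600-82574428_R, -0.35 to 1.10 in chr15:58985008-58985429_F and -0.65 to 0.20 in chr4:32294119-32294941_F. Without wild type pool 1, 27.4% of region probes were well above background on all 7 arrays.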
